A study of Mus musculus with 23 samples.

Results

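The zygote to 2-cell transition was followed within Mlx knockdown (KD) embryos, by comparing the 3 siMlx 2-cell libraries with the 3 siMlx zygote libraries of the same series, 6 of 23 RNA-seq libraries in all. Oocytes of B6D2F1 (C57BL/6xDBA/2) mice arrested at the germinal vesicle stage were injected with a mixture of siRNAs against Mlx, matured in vitro and fertilized, and the RNA of late 2-cell embryos was collected at 36 h and that of late zygotes at 14 h post fertilization according to the sample labels (the methods give later hours). The labels describe fertilization by incubation with sperm, whereas the methods describe sperm injection. Embryos with the same injection of a non-targeting siRNA (siCtrl, 3 libraries per stage) and of siRNAs against Etv5 (siEtv5, 2 libraries at the 2-cell and 3 at the zygote stage) were collected at the same hours and are used here to show where the siMlx transition differed. All these embryos therefore share the injection, the in vitro maturation and the removal of the zona pellucida before lysis. The labels do not say that the libraries of a group came from separately collected embryos, so p-values measure the spread between libraries, which may be technical.

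In the mouse, the transcription of the embryonic genome starts weakly in the zygote and strongly in the 2-cell embryo, a process called zygotic genome activation (ZGA). In parallel, the store of mRNA laid down in the growing oocyte is degraded, first during meiotic maturation and further after fertilization, with deadenylation by the CCR4-NOT complex and its adaptor BTG4 as a main route. MLX is a basic helix-loop-helix leucine zipper protein that binds E-box DNA together with the glucose-sensing Mondo factors MLXIP and MLXIPL, and also with members of the MXD family. Because whole embryos were lysed, fewer transcripts of a gene per embryo and a changed share of the remaining RNA cannot be told apart, as every value here is relative to the rest of the library. With cDNA primed by oligo-dT, a changed poly(A) tail and a changed amount of RNA cannot be told apart either.

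Between 404 and 741 Mb of aligned sequence stood behind the siMlx 2-cell libraries and between 484 and 708 Mb behind the siMlx zygote libraries. Across the 10379 genes tested, the siMlx 2-cell libraries correlated with each other at r of 0.861 to 0.934 and the siMlx zygote libraries at 0.939 to 0.965, against 0.331 to 0.404 between the stages (log2 scale, across genes, which are not independent replicates). The lowest value within a stage, 0.861, was between siMlx 2-cell 1 and 3, and siMlx 2-cell 1 was also the shallowest of the 6 libraries. Of 11 marker genes of oocytes and early embryos, all 11 were tested and 10 were lower in the 2-cell embryos, whereas 20 marker genes of cumulus and granulosa cells summed to 1.77 to 4.72 FPKM in the siMlx 2-cell libraries and 2.91 to 8.77 FPKM in the siMlx zygote libraries, with 1 or 2 of them at 1 FPKM or more.

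The targeted gene was detected at a low level at both stages. Mlx (chr11:100948604-100953521, plus strand, mm9) had 0.836, 2.26 and 4.05 FPKM in siMlx 2-cell libraries 1, 2 and 3, against 0.469, 0 and 0.442 FPKM in siMlx zygote libraries 1, 2 and 3. The stages did not overlap. In the siCtrl libraries the level was 2.42, 4.42 and 3.74 FPKM at the 2-cell and 1.84, 3.63 and 4.25 FPKM at the zygote stage, so that all 3 siMlx zygotes lay under every siCtrl zygote while the 2-cell ranges of siMlx and siCtrl overlapped. The rise of Mlx within the KD passed the test by a log2 difference of 1.09 ± 0.379 (SE, limma, adjusted p = 0.031), and the exact permutation test over the 6 FPKM values gave p = 0.1, the smallest that 3 against 3 libraries can give. This call was lost when any of the siMlx zygote libraries was left out, and the difference in the transition of Mlx between siMlx and siCtrl was 1.23 (adjusted p = 0.27). Exons of Mlx overlap those of Psmc3ip on the opposite strand, and without strand information reads there cannot be assigned; Psmc3ip, a recombination cofactor, had 20.7, 21.2 and 24.2 rescaled FPKM in siMlx 2-cell embryos, against 1.63, 0.457 and 1.27 in siMlx zygotes.

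The promoters of the KD target and of 3 genes with a large rise described below are shown because they were found to hold the E-box CACGTG, the element that MLX binds with its Mondo partners. The windows run from 250 bases before to 50 bases after the annotated start and come from RefSeq on GRCm38.p6, at chr11:101087040-101087339, plus strand for Mlx, chr7:66079399-66079698, plus strand for Vimp (Selenos in RefSeq), chr8:11478591-11478890, minus strand for Rab20 and chr8:126945872-126946171, minus strand for Tomm20. Capitals mark CACGTG, which reads the same on both strands.
Mlx: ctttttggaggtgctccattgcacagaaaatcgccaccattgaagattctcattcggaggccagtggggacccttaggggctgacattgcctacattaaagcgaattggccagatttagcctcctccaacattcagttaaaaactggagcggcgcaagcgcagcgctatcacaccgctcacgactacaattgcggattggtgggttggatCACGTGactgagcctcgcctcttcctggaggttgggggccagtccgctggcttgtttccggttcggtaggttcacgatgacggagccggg
Vimp: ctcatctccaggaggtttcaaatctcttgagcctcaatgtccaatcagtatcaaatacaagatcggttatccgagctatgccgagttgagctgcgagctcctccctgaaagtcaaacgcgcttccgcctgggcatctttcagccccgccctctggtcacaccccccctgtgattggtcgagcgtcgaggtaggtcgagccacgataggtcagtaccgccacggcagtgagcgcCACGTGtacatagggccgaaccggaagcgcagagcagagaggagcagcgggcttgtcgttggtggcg
Rab20: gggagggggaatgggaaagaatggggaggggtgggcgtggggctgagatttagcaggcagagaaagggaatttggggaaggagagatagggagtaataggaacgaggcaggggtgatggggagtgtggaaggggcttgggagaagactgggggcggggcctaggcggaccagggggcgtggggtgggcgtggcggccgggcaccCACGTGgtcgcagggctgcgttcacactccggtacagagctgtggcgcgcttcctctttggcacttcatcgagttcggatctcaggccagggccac
Tomm20: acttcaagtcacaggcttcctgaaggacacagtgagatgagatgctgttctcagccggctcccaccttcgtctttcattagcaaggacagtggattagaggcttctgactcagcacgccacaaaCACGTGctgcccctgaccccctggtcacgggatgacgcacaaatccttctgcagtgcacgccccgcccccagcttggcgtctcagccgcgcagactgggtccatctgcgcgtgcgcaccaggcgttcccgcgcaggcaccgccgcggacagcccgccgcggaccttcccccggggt
Across all 27025 promoters of this length, 1957 (7.24%) contain CACGTG. Among the other largest rises with a matched promoter, Fam212a, Gcsh, Rps26, Alppl2, Ankrd10, Tnfrsf12a and Crxos1 lack CACGTG in this window. A match is a description of the letters in the window and not of binding.

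From the zygote to the 2-cell stage most of the genes tested changed in the siMlx embryos. Of 10379 genes tested, 3672 were higher in the siMlx 2-cell embryos (35.4%) and 3022 were lower (29.1%), where a call needed more than a 2-fold change and an adjusted p below 0.05. The genes called higher held 63.0, 61.7 and 60.5% of the FPKM in siMlx 2-cell libraries 1, 2 and 3, against 5.58, 5.77 and 4.97% in siMlx zygote libraries 1, 2 and 3. The genes called lower held 9.69, 11.4 and 12.8% in the 2-cell libraries, against 73.8, 71.9 and 76.0% in the zygote libraries. Both sets were called on these same libraries, so the direction of their shares is built in. In siCtrl libraries 1, 2 and 3, not used for these calls, the higher set held 54.6, 56.2 and 54.4% at the 2-cell stage. At the siCtrl zygote stage it held 7.37, 6.61 and 6.74%. The lower set held 16.3, 15.3 and 17.1% in siCtrl 2-cell and 68.0, 68.6 and 68.4% in siCtrl zygote libraries. The stages did not overlap in 3580 of the 3672 higher and 2964 of the 3022 lower genes. Such separation largely follows from a call on the same values and is no further evidence.

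The changes were often large. Among the genes called higher, 2377 differed by 4-fold or more, 610 by 16-fold or more and 97 by 64-fold or more. Among the genes called lower the same limits were passed by 1635, 261 and 46 genes. These folds are on the log2(rescaled FPKM + 1) scale, which understates the change of genes with low values. The median over all tested genes was 0.20 on the log2 scale after rescaling, 0.57 for the FPKM as deposited, −0.07 after quantile normalization and 0.59 for TPM, so small shifts depend on the scale. The share of higher calls among all calls was 54.9% after rescaling, 62.6% as deposited (4205 higher, 2515 lower), 48% after quantile normalization (3242 higher, 3515 lower) and 61.9% with TPM (4443 higher, 2733 lower).

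The 2-cell libraries spread their FPKM over more genes. They held 8904, 9889 and 10251 genes at 1 FPKM or more, against 8738, 8354 and 8547 in the zygote libraries, and the 100 most abundant genes took 31.2, 24.9 and 22.7% of the FPKM in the 2-cell libraries, against 51.0, 51.1 and 53.9% in the zygote libraries. Neither measure overlapped between the stages (two-sided exact permutation p = 0.1 for each, the smallest possible), and the aligned bases of the stages did overlap (p = 0.9). Zbed3, a component of the subcortical maternal complex, headed the siMlx zygotes with 48440, 69250 and 41050 FPKM, and Gcsh, the lipoyl-carrying H protein of the glycine cleavage system, headed the siMlx 2-cell embryos with 5407, 3534 and 2456 FPKM.

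**Figure D1:**
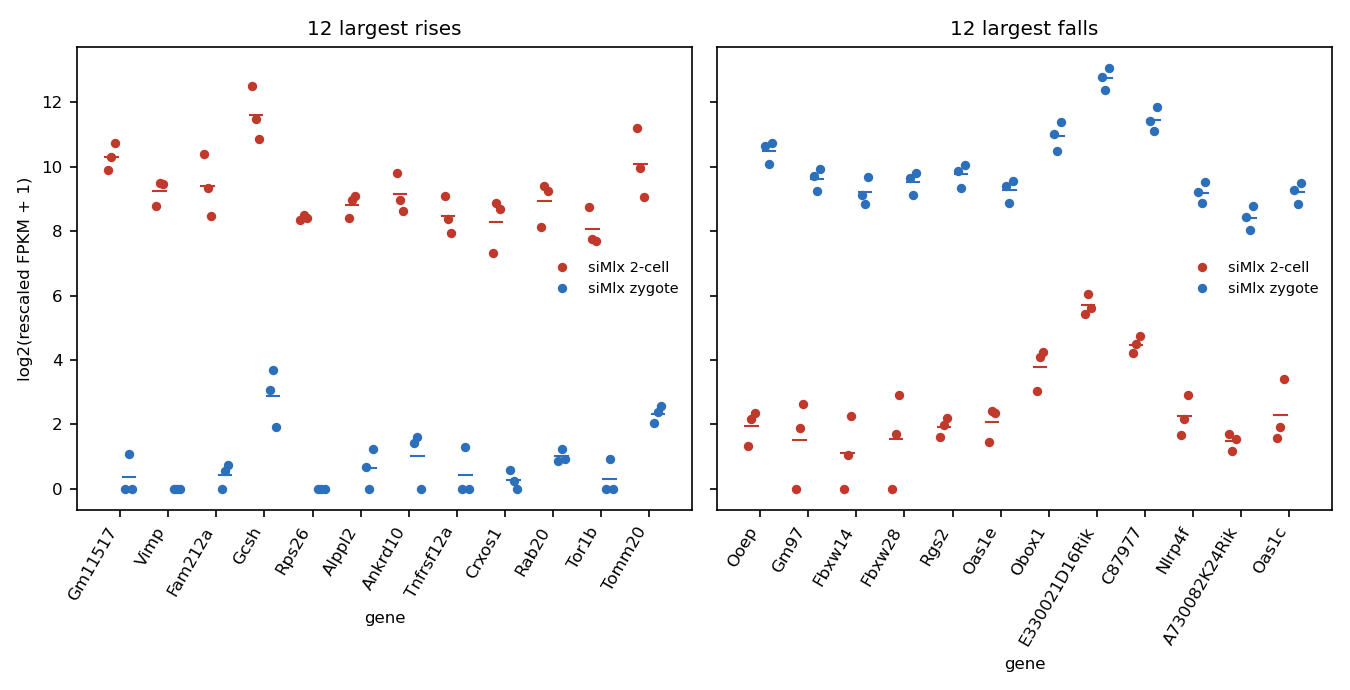
The vertical axis gives log2(rescaled FPKM + 1) of the 12 largest rises and the 12 largest falls, with red points for siMlx 2-cell libraries, blue points for siMlx zygote libraries and bars for means. The genes drawn were chosen among called genes with no overlap of the stages, so their points lie apart by that rule. Vimp, for example, stands at 437 to 718 rescaled FPKM in the 2-cell libraries against 0 in the zygotes.

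Among the genes with the largest rise, several were listed at or near 0 in every siMlx zygote. Vimp, which encodes the selenoprotein S of the endoplasmic reticulum, had 437, 718 and 710 rescaled FPKM in siMlx 2-cell libraries 1, 2 and 3, and was listed at 0 in all 3 siMlx zygotes. Rps26, a protein of the small ribosomal subunit, had 324, 365 and 336 rescaled FPKM in the 2-cell libraries and was likewise listed at 0 in all 3 zygotes. Gm11517, an annotated gene model, had 963, 1260 and 1690 rescaled FPKM in 2-cell embryos, against 0, 1.1 and 0 in zygotes, the largest log2 difference of the named genes at 9.95 ± 0.399 (SE, limma, adjusted p = 5.5e-06). Rab20, a small GTPase of vesicle trafficking, had 276, 676 and 611 in 2-cell embryos, against 0.834, 1.38 and 0.904 in zygotes, a 501-fold ratio of the means. That the stages did not overlap was a condition for naming these 4 genes.

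Other genes of this group were present in the zygote at a few FPKM. Gcsh had 5760, 2860 and 1860 rescaled FPKM in siMlx 2-cell embryos, against 7.37, 11.9 and 2.79 in siMlx zygotes, a 475-fold ratio of the means. Tomm20, a receptor of the mitochondrial outer membrane import machinery, had 2370, 994 and 530 in 2-cell embryos, against 3.11, 4.17 and 4.89 in zygotes. In both genes, and in Fam212a (1340, 646 and 354 in 2-cell embryos, against 0, 0.474 and 0.667 in zygotes), the highest 2-cell value was in siMlx 2-cell 1, the shallowest library. Ankrd10 (log2 difference 8.13), Alppl2, a placental-type alkaline phosphatase (8.18), the TWEAK receptor gene Tnfrsf12a (8.04), the homeobox gene Crxos1 (8.01) and the torsin gene Tor1b (7.75) completed the 12. Tnfrsf12a overlaps Hcfc1r1 on the opposite strand.

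The 12 largest falls included 3 members of the oocyte list described below, Ooep, Oas1e and Nlrp4f. Ooep, a subunit of the subcortical maternal complex that early cleavage depends on, had 1.52, 3.45 and 4.14 rescaled FPKM in siMlx 2-cell embryos, against 1590, 1090 and 1700 in siMlx zygotes, a 480-fold ratio of the zygote mean to the 2-cell mean and a log2 difference of −8.53 ± 0.376 (SE, limma, adjusted p = 5.8e-06). Rgs2, a regulator of G-protein signalling, had 2.02, 2.93 and 3.58 in 2-cell embryos, against 942, 646 and 1070 in zygotes. The homeobox gene Obox1 had 7.18, 16.0 and 18.1 in 2-cell embryos, against 2060, 1450 and 2670 in zygotes. The order of the zygote libraries was the same in these 3 genes, with zygote 3 highest and zygote 2 lowest. E330021D16Rik was the most abundant of the 12 in zygotes, with 42.4, 64.9 and 48.1 in 2-cell embryos, against 7120, 5370 and 8560 in zygotes.

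The remaining large falls were Gm97 (log2 difference −8.12), the F-box genes Fbxw14 (−8.11) and Fbxw28 (−7.99), the oligoadenylate synthetase family members Oas1e (−7.20) and Oas1c (−6.90), the PRAME family member C87977 (−6.98), the NLR family member Nlrp4f (−6.95) and A730082K24Rik (−6.95). Fbxw14, Fbxw28, Oas1c, Oas1e, Obox1 and C87977 belong to families with near-identical copies, and the authors' quantification could have divided reads among the copies, so the level of a single member is uncertain.

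The lists described below cover factors, pathways and complexes, and their counts and medians stand beside 35.4% higher, 29.1% lower and a median of 0.20 over all genes. Of 52 tested genes of the oocyte and maternal-effect list, 44 fell in siMlx embryos (84.6%), 1 rose and 7 were not called, with a median log2 difference of −3.73. Together the list summed to 10300, 12010 and 13320 FPKM in the siMlx 2-cell libraries, against 108000, 111200 and 112900 FPKM in the siMlx zygote libraries. Zbed3 had 3340, 1540 and 854 rescaled FPKM in 2-cell embryos, against 52300, 82200 and 46900 in zygotes, a 31.6-fold ratio of the zygote mean to the 2-cell mean. The oocyte growth factors Bmp15 (log2 difference −6.14) and Gdf9 (−2.55), the oocyte transcription factors Nobox (−6.06) and Lhx8 (−4.19), the maternal-effect genes Zar1 (−5.23), Nlrp5 (−4.15), Npm2 (−4.87), Padi6 (−2.73) and Tle6 (−2.60), and the linker histone H1foo (−3.91) fell as well. Dppa3, which protects the maternal genome against demethylation, fell by 1.47 on the log2 scale. Rfpl4b was the single member that rose, with 27.5, 19.8 and 31.4 rescaled FPKM in 2-cell embryos, against 0.768, 0.282 and 1.74 in zygotes.

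The factors that carry out or regulate maternal mRNA decay divided between the directions. Of 48 tested, 20 fell (41.7%), 11 rose (22.9%) and the median was −0.81. Btg4, the adaptor that brings CCR4-NOT to maternal mRNA, had 49.2, 128 and 155 rescaled FPKM in siMlx 2-cell embryos, against 5880, 4840 and 7600 in siMlx zygotes, a log2 difference of −5.90 ± 0.486 (SE, limma, adjusted p = 2.4e-05). Pabpn1l, an oocyte poly(A)-binding protein, had 0, 0.924 and 2.34 in 2-cell embryos, against 137, 102 and 149 in zygotes. Dazl, an RNA-binding activator of oocyte translation, had 3.02, 2.16 and 2.06 in 2-cell embryos, against 167, 131 and 164 in zygotes. Within CCR4-NOT, the deadenylases Cnot6l (−3.02) and Cnot7 (−1.83) fell while Cnot8 (2.08) rose. The somatic poly(A)-binding protein Pabpc1 rose, with 86.6, 67.3 and 66.2 in 2-cell embryos, against 0.601, 1.25 and 1.38 in zygotes, as did the m6A reader Ythdf2 (273, 189 and 165 in 2-cell embryos, against 17.9, 55.8 and 18.5 in zygotes). Pabpn1, the widely expressed paralogue of Pabpn1l, rose (1.50). Eif4e1b, the oocyte cap-binding protein, fell to 7.02, 6.83 and 7.3 in 2-cell embryos, against 226, 137 and 203 in zygotes.

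**Figure D2:**
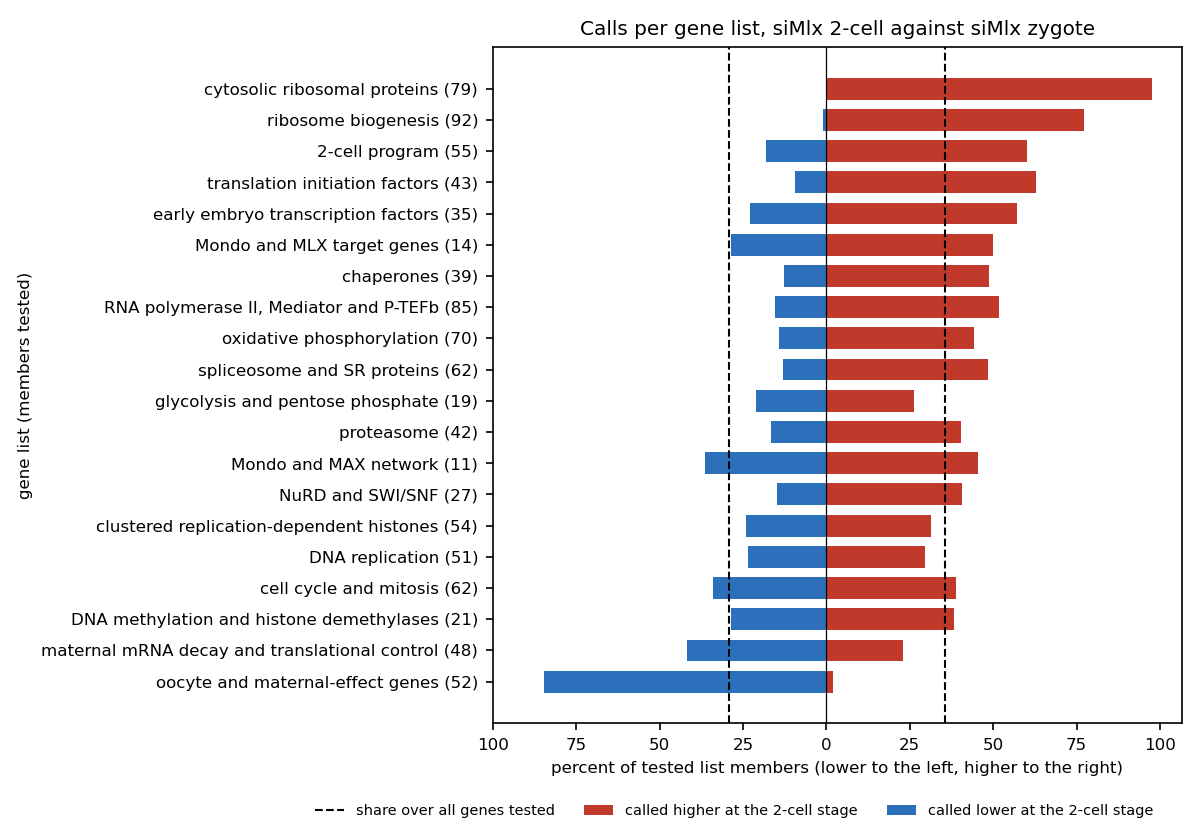
Percent of the tested genes of each list called higher and called lower in siMlx 2-cell embryos against siMlx zygotes, with dashed lines at 35.4% higher and 29.1% lower over all 10379 genes. Cytosolic ribosomal proteins reach 97.5% higher and 0% lower, and the oocyte and maternal-effect genes reach 84.6% lower.

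Genes of the protein synthesis machinery made up the most uniform rise. Of 79 cytosolic ribosomal protein genes, 77 rose (97.5%) and 0 fell, with a median log2 difference of 4.28. Their FPKM summed to 9366, 11990 and 13650 in the siMlx 2-cell libraries, against 435, 329 and 387 in the siMlx zygote libraries, and 11 of them were listed at 0 in all 3 zygotes. Rps19 had 172, 165 and 175 rescaled FPKM in 2-cell embryos, against 0.88, 0.89 and 0 in zygotes. Rps27a had 215, 126 and 36.1 in 2-cell embryos and was listed at 0 in all 3 zygotes, with the lowest 2-cell value in the deepest library. Ribosomal protein mRNAs share reads with many processed pseudogenes, and where genes are listed at 0 the value may be a failed estimate, since every cell uses these genes. The part of poly(A) tail length in this rise was not tested. Of 92 ribosome biogenesis genes, 71 rose (77.2%), 1 fell (1.09%) and the median was 2.32. Nop16 had 74.8, 97.6 and 128 in 2-cell embryos, against 0.635, 0.397 and 0.755 in zygotes, and the nucleolar methyltransferase gene Nop2 had 43.2, 62.7 and 72.3 in 2-cell embryos, against 0.642, 0.273 and 0 in zygotes. The kinase gene Riok1, which acts late in small subunit assembly, was the single member that fell, with 10.1, 18 and 12.2 in 2-cell embryos, against 286, 212 and 297 in zygotes.

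Among 43 translation initiation factors 27 rose and 4 fell (median 1.75). Eif3c, of the scaffold complex that recruits mRNA to the small subunit, had 174, 111 and 92.2 rescaled FPKM in siMlx 2-cell embryos, against 3.08, 1.97 and 2.15 in siMlx zygotes. Eif1a, a start-site selection factor with copies expressed at the 2-cell stage, had 35.8, 64.2 and 90.1 in 2-cell embryos, against 1.13, 1.68 and 1.38 in zygotes. Eif1b fell, with 172, 95.3 and 77.5 in 2-cell embryos, against 836, 932 and 736 in zygotes. Of the 4 genes that fell, the largest change was that of Eif4e1b.

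The transcription and splicing machinery rose more often than it fell. Of 85 genes of RNA polymerase II, Mediator and P-TEFb, 44 rose and 13 fell (median 1.10). Cdk9, the kinase of P-TEFb that releases paused polymerase, had 76.9, 95.8 and 88.9 rescaled FPKM in siMlx 2-cell embryos, against 1.27, 2.44 and 1.3 in siMlx zygotes, and the Mediator subunit gene Med29 had 237, 249 and 200 in 2-cell embryos, against 2.9, 2.56 and 5.69 in zygotes. The Mediator subunit gene Med30 moved the other way, with 36.7, 10.4 and 12.6 in 2-cell embryos, against 908, 1540 and 656 in zygotes, and Tbpl2, the oocyte TBP paralogue, fell to 0, 0 and 1.11 in 2-cell embryos, against 5.86, 7.48 and 3.9 in zygotes. Of 62 spliceosome and SR protein genes, 30 rose and 8 fell (median 0.98). Snrpd2, of the Sm core, had 114, 116 and 236 in 2-cell embryos and was listed at 0 in all 3 zygotes, and the splicing regulator gene Tra2a had 78.4, 80.6 and 75.0 in 2-cell embryos, against 2.12, 0.966 and 1.02 in zygotes. Snrnp27, of the tri-snRNP, fell, with 10.7, 12.6 and 11.3 in 2-cell embryos, against 111, 91.8 and 143 in zygotes.

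Most tested genes that mark the 2-cell program were higher, but their summed FPKM was not, and differences from siCtrl embryos are described below. Of 55 tested, 33 rose (60%), 10 fell (18.2%) and the median was 1.95. Together the list summed to 1345, 2818 and 4623 FPKM in siMlx 2-cell libraries 1, 2 and 3. In siMlx zygote libraries 1, 2 and 3 it summed to 4589, 3351 and 5057 FPKM. The siCtrl sums were 4896, 4182 and 6606 FPKM at the 2-cell stage, against 2981, 2005 and 1960 FPKM at the zygote stage. The homeobox gene Obox6 had 147, 251 and 426 rescaled FPKM in siMlx 2-cell embryos, against 1.34, 1.35 and 1.42 in siMlx zygotes. The PRAME family gene Pramel7 had 53.4, 72.2 and 112 in 2-cell embryos, against 0, 0.473 and 0 in zygotes, and all 4 tested Pramel genes of the list (Pramel4, Pramel5, Pramel6 and Pramel7) and all 5 tested Tdpoz genes rose. In these families siMlx 2-cell 1 was lowest and 2-cell 3 highest for Obox6, Pramel7 and Pramel4 (36.4, 43.2 and 60.5 in 2-cell embryos, against 0.257, 0 and 0 in zygotes). Dux, the homeobox gene that activates many 2-cell genes and peaks before the late 2-cell stage, fell by 3.25 on the log2 scale. C87977 and C87499 fell as well (C87499 had 10.2, 14.2 and 16.3 in 2-cell embryos, against 828, 689 and 1050 in zygotes). These are families of near-identical copies, so members are uncertain one by one.

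Early embryo transcription factors were exchanged. Of 35 tested, 20 rose and 8 fell (median 1.44). Klf5, a factor of the first lineages, had 378, 154 and 78.8 rescaled FPKM in siMlx 2-cell embryos, against 1.94, 4.16 and 1.15 in siMlx zygotes, and Dppa4, an activator of 2-cell genes, had 101, 178 and 266 in 2-cell embryos, against 2.21, 1.34 and 2.24 in zygotes. Gabpa (log2 difference 5.58), Rarg (4.07), Tbx3 (3.96), Nfyb (3.61), Tead4 (3.39), Klf4 (3.28), Nr5a2 (2.18) and Tfap2c (2.18) rose. Zfp57, which maintains imprints, had 69.0, 55.3 and 59.0 in 2-cell embryos, against 2860, 3570 and 3060 in zygotes, and the maternally stored Pou5f1 (−2.39), Obox5 (−5.50) and Obox2 (−6.22) fell. Of 5 tested Obox genes, Obox3 and Obox6 rose and Obox1, Obox2 and Obox5 fell, and the same division was called in siCtrl embryos. Of 7 tested factors that the study named 2 rose and 4 fell (median −1.57). Etv5 rose, with 17.9, 24.3 and 39.6 in 2-cell embryos, against 2.41, 2.9 and 1.18 in zygotes, whereas Etv1 (−1.91), Nfya (−1.57), Usf2 (−1.60) and Klf7 (−2.81) fell and Rfx1 was not called (0.46, adjusted p = 0.22).

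The partners and competitors of MLX changed in both directions. Of 11 tested genes of the Mondo and MAX network 5 rose and 4 fell (median 0.66). Mlxip, the Mondo factor with the higher rescaled FPKM in each of these libraries, had 29.4, 17.9 and 12.9 rescaled FPKM in siMlx 2-cell embryos, against 44.7, 51.8 and 37.9 in siMlx zygotes (log2 difference −1.18 ± 0.360, SE, limma, adjusted p = 0.018). Mlxipl, also called ChREBP, had 17.8, 9.16 and 7.57 in 2-cell embryos, against 6.67, 5.02 and 8 in zygotes, ranges that overlapped, and was not called (0.66, adjusted p = 0.15). The shared partner gene Max fell, with 10.8, 15.5 and 8.84 in 2-cell embryos, against 90.9, 67.5 and 101 in zygotes. The repressor genes Mxd1 (−3.05) and Mxd4 (−3.26) fell and Mxd3 (2.70), which overlaps Prelid1 on the opposite strand, rose. Myc had 12.2, 13.8 and 14.4 in 2-cell embryos, against 0.945, 2.07 and 2.24 in zygotes, and Mga (2.15) and Mycn (2.56) rose too. Mycn varied most, at 19.4, 6.05 and 1.27 in the 2-cell libraries, against 0, 0.581 and 0 in the zygotes.

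Genes that Mondo factors and MLX are known to regulate in liver and other tissues were also divided. Of 14 tested, 7 rose (50%) and 4 fell (28.6%), with a median of 1.28. The fatty acid elongase gene Elovl6 had 23.7, 39.8 and 62.6 rescaled FPKM in siMlx 2-cell embryos, and the desaturase gene Scd1 had 17.6, 33.1 and 40.7; both were listed at 0 in all 3 siMlx zygotes. Pfkfb3, which sets the level of a glycolytic activator, had 8.45, 10.6 and 9.69 in 2-cell embryos, against 0, 0.295 and 0.507 in zygotes. The lipogenic genes Fasn (1.74) and Acly (1.24) rose less. Pnpla3 had 2.23, 4.22 and 3.37 in 2-cell embryos, against 68.0, 50.8 and 77.5 in zygotes, and the malic enzyme gene Me1 (−3.74), Thrsp (−3.61) and Txnip, a repressor of glucose uptake (−1.49), fell. Arrdc4, a paralogue of Txnip, had a log2 difference of 1.31 that did not pass the test (adjusted p = 0.16). In siCtrl embryos Elovl6 (5.07), Scd1 (4.62), Pfkfb3 (2.33), Fasn (1.41) and Acly (1.12) rose and Pnpla3 (−4.53), Me1 (−3.13), Thrsp (−2.22) and Txnip (−2.04) fell. Under siCtrl 19 members were tested, of which 11 rose and 4 fell, so not all calls were shared. Among those not shared was Arrdc4 (3.25 and called higher under siCtrl). Klf10, a zinc finger repressor, was not called under siMlx (−0.41) and was called higher under siCtrl (1.31). Gpd2, the mitochondrial glycerol phosphate dehydrogenase, was called higher under siMlx (1.96) and was not called under siCtrl (−0.47). For 0 of the 15 members tested did the transition differ between siMlx and siCtrl by the same limits, beside 0.195% higher and 0.964% lower over all genes.

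In central metabolism and the remaining machinery, members moved in both directions. Of 19 tested genes of glycolysis and the pentose phosphate pathway 5 rose and 4 fell (median 0.88). Pgd, of the oxidative pentose phosphate branch, had 39.3, 52.7 and 71.2 rescaled FPKM in siMlx 2-cell embryos, against 1.69, 1.4 and 1.43 in siMlx zygotes, while G6pdx, which encodes the first enzyme of that branch, had 3.84, 6.45 and 9.7 in 2-cell embryos, against 85.2, 59.5 and 98.3 in zygotes. The lactate dehydrogenase gene Ldhb fell, with 22, 19.8 and 27.2 in 2-cell embryos, against 503, 326 and 566 in zygotes. Of 70 oxidative phosphorylation genes 31 rose and 10 fell (median 1.07), among them Cox7c with 298, 235 and 184 in 2-cell embryos, against 3.57, 6.43 and 6.38 in zygotes. Of 42 proteasome genes 17 rose and 7 fell (0.87); the catalytic subunit gene Psmb5 had 201, 288 and 254 in 2-cell embryos, against 4.76, 3.4 and 4.03 in zygotes. Of 39 chaperone genes 19 rose and 5 fell (1.16), with Dnajb9 of the endoplasmic reticulum at 1610, 1240 and 831 in 2-cell embryos, against 15.1, 28.4 and 20.4 in zygotes.

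Cell cycle genes were nearly balanced. Of 62 tested, 24 rose and 21 fell (median 0.03). The G1/S cyclin gene Ccne1 had 1020, 502 and 415 rescaled FPKM in siMlx 2-cell embryos, against 7.02, 6.37 and 4.01 in siMlx zygotes, and the mitotic cyclin gene Ccnb2 had 1.78, 3.32 and 3.66 in 2-cell embryos, against 60.7, 55.2 and 64.2 in zygotes. The checkpoint kinases crossed, with Chek2 at 20.2, 44.2 and 46.7 in 2-cell embryos, against 0, 0.461 and 0 in zygotes, and Chek1 at 3.37, 4.94 and 7.14 in 2-cell embryos, against 130, 101 and 157 in zygotes. The inhibitor gene Cdkn1b was listed at 0 in all 3 2-cell libraries and had 14.5, 18.7 and 13.5 in zygotes. Of 51 DNA replication genes 15 rose and 12 fell (median 0.08), Rpa2 among the rises (log2 difference 3.60) and Orc5 among the falls (−3.37).

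Chromatin regulators included large changes in both directions. Of 27 NuRD and SWI/SNF genes 11 rose and 4 fell (median 0.48). Mta2, of the NuRD repressor, had 118, 97.1 and 77.6 rescaled FPKM in siMlx 2-cell embryos, against 0.889, 1.43 and 0 in siMlx zygotes, and the deacetylase gene Hdac1 had 12.2, 27.1 and 30.1 in 2-cell embryos, against 0, 0 and 0.477 in zygotes. Of 21 genes of DNA methylation and histone demethylation 8 rose and 6 fell (0.01). The H3K4 demethylase genes Kdm5b (106, 72.0 and 70.3 in 2-cell embryos, against 1.74, 1.31 and 2.88 in zygotes) and Kdm5a (log2 difference 4.0) rose, and Tet3, the oxidase that acts on the paternal genome, fell, with 17.6, 10.1 and 13.3 in 2-cell embryos, against 87.1, 91.5 and 80.5 in zygotes. Uhrf1, which guides maintenance methylation, fell by 2.06 on the log2 scale. Of 54 clustered replication-dependent histone genes 17 rose and 13 fell (0.34), and their mRNAs mostly lack a poly(A) tail, so their level in oligo-dT primed cDNA is a measure of the polyadenylated part only. Of 7 tested interferon response genes, Stat2, Irf7 and Irf9 rose and Ddx58 and Oasl1 fell (median 0.92).

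A smaller set moved between values under 1 FPKM and clear levels. Because the files hold no counts, a value listed at 0 may be a failed estimate, and the set includes genes that every cell uses, such as Rps26. Under 1 FPKM in every siMlx zygote and at 10 FPKM or more in every siMlx 2-cell library stood 344 genes, led by Gm11517, Fam212a, Vimp, Crxos1, Rps26 and Tor1b. The reverse held for 43 genes, led by Fbxw20, which was listed at 0 in all 3 2-cell libraries and had 42.0, 67.3 and 74.5 FPKM in zygotes, then Gm813, C86695, Zfp735, Epsti1 and Immp1l. The count of 43 was 77 without siMlx zygote 2, 79 without siMlx 2-cell 2 and 82 without siMlx 2-cell 3. Of these 43 genes 11 were also lost under siCtrl (25.6%, of 45 there) and 9 under siEtv5 (20.9%, of 36 there). In siCtrl embryos 338 genes passed the limits for a gain, and 140 were shared with siMlx (40.7% of the siMlx and 41.4% of the siCtrl genes). Of the 204 siMlx genes outside the siCtrl set, 154 had 1 FPKM or more in siCtrl zygote 1, against 42 in siCtrl zygote 2 and 29 in siCtrl zygote 3. Without siCtrl zygote 1 the siCtrl set held 553 genes and shared 250 with siMlx (72.7% of the siMlx and 45.2% of the siCtrl genes), a count chosen after seeing the data. Since the limits apply to every library, leaving any library out can only enlarge a set or leave it unchanged. The growth of the set and of the number shared is therefore no evidence about that library. In siEtv5 embryos, with 2 libraries at the 2-cell stage, 540 genes did so and 231 were shared (67.2% of the siMlx and 42.8% of the siEtv5 genes).

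The siMlx transition was then set beside that of control embryos, with which it shares no library. Under siCtrl, 4104 of 11094 genes were higher in 2-cell embryos (37%) and 2981 were lower (26.9%). Of the siMlx genes called higher, 3147 were also called higher under siCtrl (85.7% of the siMlx and 76.7% of the siCtrl calls), and of those called lower 2413 were also lower (79.8% and 80.9%). Across 10046 genes tested in both, the log2 differences correlated at r = 0.936, as a description across genes. Opposite calls were made for 5 genes, which were lower under siMlx and higher under siCtrl: Acaa1a, Flrt3, Nxnl2, Tspan31 and Uts2r. Under siEtv5, 4130 of 10887 genes were higher (37.9%) and 2501 were lower (23%).

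Genes called in siEtv5 embryos moved to a similar extent in both other groups. The 3715 siEtv5 risers tested under siMlx had a median log2 difference of 2.30 there, with 3000 called higher (80.8%), and the 3926 tested under siCtrl had a median of 2.35, with 83.3% called higher. The siEtv5 fallers had a median of −2.17 under siMlx (82.7% called lower) and −2.01 under siCtrl (84.2% called lower). Of the ribosomal protein genes 75 of 79 rose under siCtrl, at a median of 4.01, and the ribosome biogenesis genes had a median of 2.19. The oocyte and maternal-effect list had a median of −3.73 under siMlx and −2.45 under siCtrl, with 41 of 52 called lower under siCtrl, and the 2-cell program had a median of 1.95 under siMlx and 3.37 under siCtrl, with 42 of 55 called higher.

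**Figure D3:**
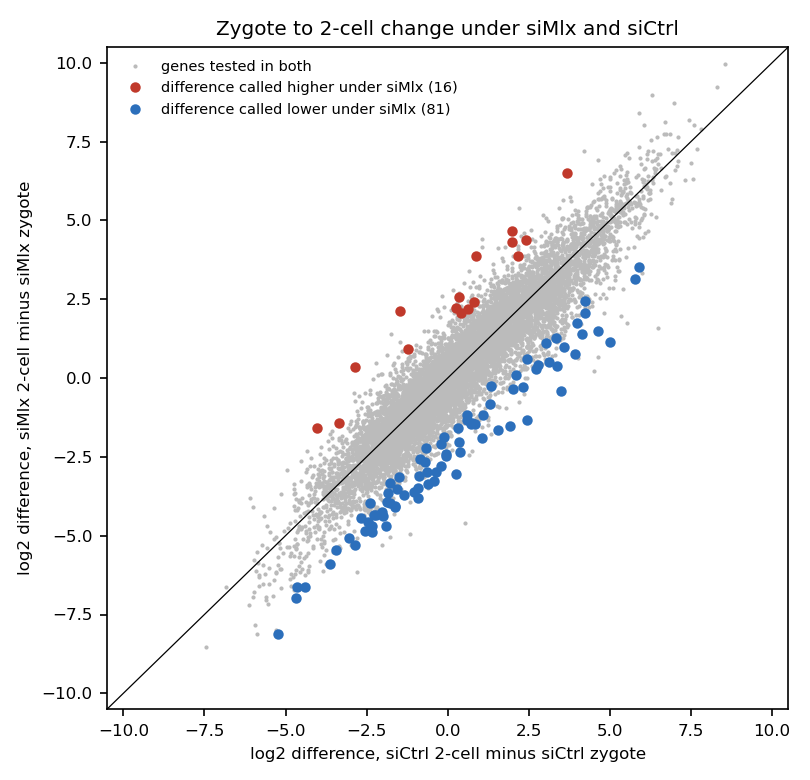
Log2 difference between 2-cell embryos and zygotes under siMlx (vertical) and under siCtrl (horizontal), 1 point per gene tested in both groups, with the genes whose transition differed drawn in colour, and r = 0.936 across 10046 genes. Most coloured points lie below the diagonal, 81 lower against 16 higher among the genes drawn.

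The transition differed between siMlx and siCtrl, by the test of the difference itself, in few genes. Of 10787 tested, 104 had a lower change under siMlx than under siCtrl (0.964%) and 21 had a higher one (0.195%), and 1742 had an unadjusted p under 0.05. Every named call below was lost under 2 or more of up to 21 alternatives, and those of Btg4 and Elf3 under 17. The counts rest on single libraries: leaving out 1 library at a time gave 13 to 204 lower and 3 to 77 higher calls. The lowest counts came without siCtrl zygote 2 (13 lower, 5 higher), siMlx zygote 1 (14 and 6) and siCtrl zygote 3 (15 and 3), and the highest without siMlx 2-cell 3 (204 and 77) and siMlx 2-cell 1 (150 and 42). Without siMlx zygote 3 there were 38 lower and 9 higher, without siCtrl zygote 1 there were 43 and 9, without siCtrl 2-cell 1, 2 or 3 there were 52, 62 and 38 lower calls beside 18, 16 and 13 higher, and without siMlx 2-cell 2 or siMlx zygote 2 there were 70 and 92 lower calls beside 11 and 12 higher. Cumulus and granulosa marker genes summed to 1.77 to 4.72 FPKM in siMlx 2-cell libraries, against 22.8 to 29.4 FPKM in siCtrl 2-cell libraries, and to 2.91 to 8.77 FPKM in siMlx zygotes, against 7.06 to 11.9 FPKM in siCtrl zygotes. Of 8 blood marker genes found, 2 were tested and both rose under siMlx (median 1.66), and their FPKM summed to 1.41, 8.55 and 16.4 in siMlx 2-cell libraries, against 35.1, 78.5 and 53.0 in siCtrl 2-cell libraries, with 1.45 or less in every zygote library of both groups. Of 13 sperm marker genes 4 were tested, of which 2 rose and 2 fell under siMlx (median 0.24), and they summed to 8.42, 24.0 and 24.9 FPKM in siMlx 2-cell libraries, against 46.0, 44.8 and 50.2 FPKM in siCtrl 2-cell libraries. Of 4 cumulus and granulosa marker genes tested for the difference, 1 was called lower under siMlx (Tnfaip6) and 0 higher. The part of these markers in the differences was not tested.

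Most of the 104 genes with a lower change either fell further or rose less under siMlx than under siCtrl. Of them, 29 fell in both groups, 24 fell under siMlx and were not called under siCtrl, 9 rose in both, 14 rose under siCtrl with no call under siMlx, and 20 rose under siCtrl and had values too low to be tested under siMlx. On rescaled FPKM, the zygote mean was higher in siMlx than in siCtrl for 84 of the 104, and the 2-cell mean was lower for 103. Of the 21 with a higher change, 17 had a lower zygote mean and 20 a higher 2-cell mean in siMlx. These directions largely follow from the calls on the same 12 libraries and are no further evidence. Levels and values named next were rescaled over the 12 siMlx and siCtrl libraries together.

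Several genes of the oocyte list had a lower change under siMlx. Of its 52 tested genes 8 were called lower and 0 higher, beside 0.964% lower and 0.195% higher over all genes: Btg4, Oosp1, Spin1, Tcl1, Tcl1b1, Tcl1b2, Wee2 and Zp1. Spin1, a meiotic spindle protein and histone reader, had 85.8, 153 and 199 rescaled FPKM in siMlx 2-cell embryos, against 4540, 4430 and 8480 in siMlx zygotes, and 209, 215 and 238 in siCtrl 2-cell embryos, against 1510, 2000 and 1380 in siCtrl zygotes. Its log2 difference was −5.30 under siMlx and −2.85 under siCtrl (difference −2.45 ± 0.469, SE, limma, adjusted p = 0.031). Tcl1, an AKT co-activator stored in oocytes, had 217, 345 and 498 in siMlx 2-cell embryos, against 10300, 7470 and 13500 in siMlx zygotes, and 1040, 1270 and 1220 in siCtrl 2-cell embryos, against 6490, 5510 and 5940 in siCtrl zygotes. Btg4 had 54.5, 142 and 173 in siMlx 2-cell embryos, against 6580, 5390 and 8620 in siMlx zygotes, and 288, 277 and 309 in siCtrl 2-cell embryos, against 3740, 3310 and 3800 in siCtrl zygotes. On these rescaled values, for all 3 genes the siMlx libraries lay below every siCtrl library at the 2-cell stage. They lay above every siCtrl library at the zygote stage. As deposited, Tcl1 had 5656 FPKM in siMlx zygote 2, below the 6828, 5657 and 6158 FPKM of siCtrl zygotes 1, 2 and 3. With FPKM as deposited, the calls of all 8 genes of the oocyte list were lost. They were also lost with TPM that was not rescaled.

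In Wee2, the oocyte kinase that holds meiotic arrest, the difference was −1.95 (adjusted p = 0.035), in the secreted oocyte protein gene Oosp1 −1.79 (0.035) and in the zona pellucida gene Zp1 −2.84 (0.035). Tcl1b1 (−2.60) and Tcl1b2 (−2.23) are near-identical copies in 1 cluster on chromosome 12 and are uncertain one by one. Zfp36l1, which destabilizes mRNAs with AU-rich elements, stood in the decay list and had a lower change under siMlx. It had 0.739, 1.10 and 1.42 in siMlx 2-cell embryos, against 0.553, 1.20 and 0 in siMlx zygotes. The siCtrl values were 11, 10.8 and 6.49 in 2-cell embryos, against 0.299, 0 and 0 in zygotes.

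Of 6 tested Zscan4 genes, which mark the 2-cell state and act at telomeres, the change was called lower under siMlx for Zscan4c, Zscan4d and Zscan4f and was not called for Zscan4a (−2.93, adjusted p = 0.058, limma), Zscan4b (−1.54, 0.28) and Zscan4e (−0.26, 0.89). Zscan4c had 10.2, 21.1 and 31.0 rescaled FPKM in siMlx 2-cell embryos, against 15.5, 12.3 and 16.3 in siMlx zygotes, and 62.2, 50.2 and 73.5 in siCtrl 2-cell embryos, against 7.87, 4.6 and 3.76 in siCtrl zygotes. Its log2 difference was 0.37 under siMlx, where the stages overlapped, and 3.37 under siCtrl (difference −2.98 ± 0.522, SE, limma, adjusted p = 0.023). Zscan4d differed by −3.13 (adjusted p = 0.036), with 10.8, 19.2 and 25.1 in siMlx 2-cell embryos, against 9.33, 6.11 and 16.4 in siMlx zygotes, and 42.6, 67.0 and 80.7 in siCtrl 2-cell embryos, against 6.41, 2.51 and 1.86 in siCtrl zygotes. Zscan4f differed by −2.71 (limma, adjusted p = 0.031). The calls of Zscan4c, Zscan4d and Zscan4f were lost under 7, 12 and 12 of 21 alternatives. For each of them these included FPKM as deposited and TPM that was not rescaled. Within the family, which was singled out after its values were seen, 1 of 6 tested members was called higher under siMlx (Zscan4f; 35.4% over all genes) and 5 of 6 under siCtrl (37% over all genes), and reads of the near-identical copies cannot be assigned with certainty. In the same list C87977 (−2.31) and Zfp750 (−2.09) fell further under siMlx, Zfp750 with 0.967, 2.52 and 3.00 in siMlx 2-cell embryos, against 142, 137 and 134 in siMlx zygotes, and 9.04, 9.21 and 7.23 in siCtrl 2-cell embryos, against 101, 102 and 100 in siCtrl zygotes.

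**Figure D4:**
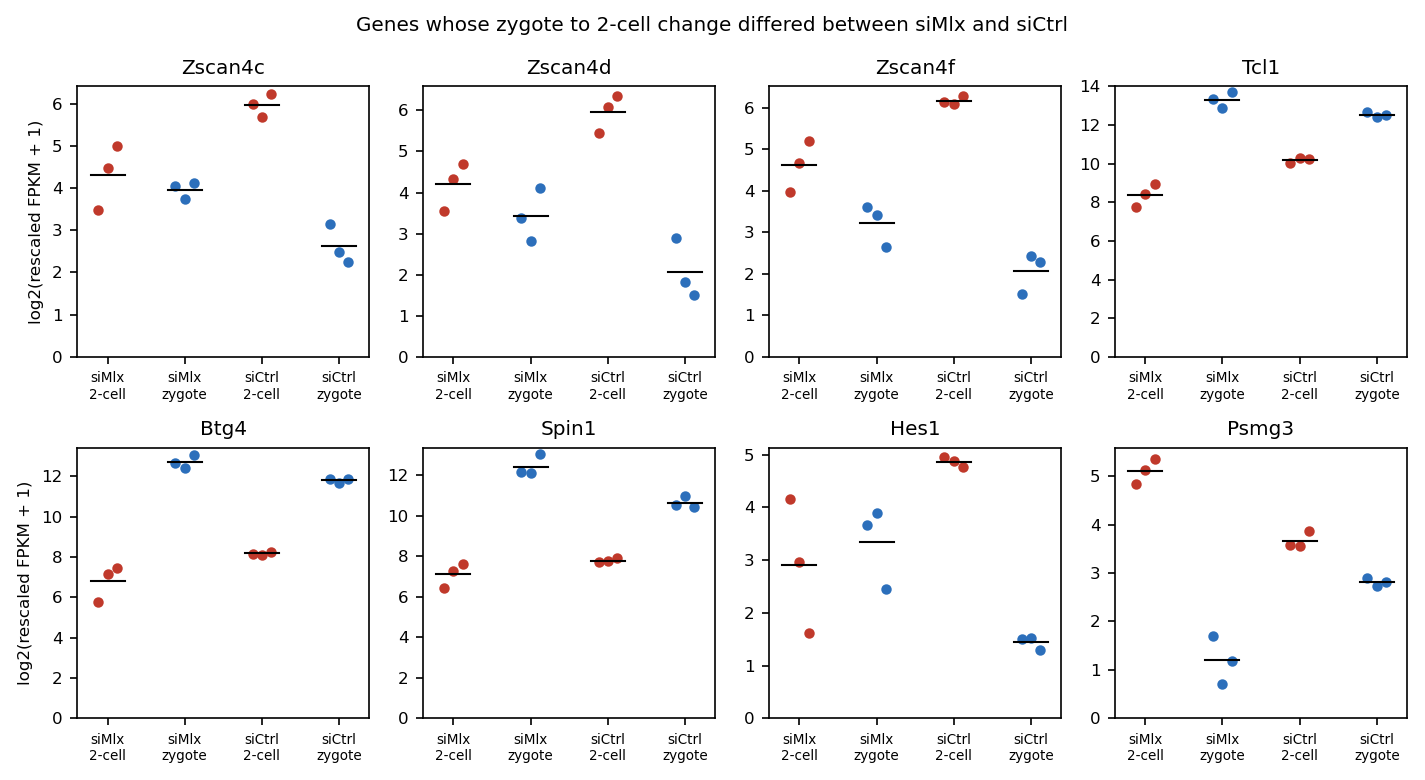
Log2(rescaled FPKM + 1) of Zscan4c, Zscan4d, Zscan4f, Tcl1, Btg4, Spin1, Hes1 and Psmg3 per library in siMlx 2-cell embryos, siMlx zygotes, siCtrl 2-cell embryos and siCtrl zygotes, with points for libraries and bars for means. Zscan4c stands at 10.2 to 31.0 in siMlx 2-cell embryos, below the 50.2 to 73.5 rescaled FPKM of siCtrl 2-cell embryos.

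The largest lower changes among the named genes were those of Mir451, Hes1, Uts2r, Cypt3, Snord15b and 0610040F04Rik. Hes1, the Notch-responsive repressor, had 16.8, 6.83 and 2.08 rescaled FPKM in siMlx 2-cell embryos, against 11.7, 13.8 and 4.49 in siMlx zygotes, and 30.0, 28.5 and 26.1 in siCtrl 2-cell embryos, against 1.84, 1.88 and 1.46 in siCtrl zygotes (difference −3.84 ± 0.741, SE, limma, adjusted p = 0.032). The siMlx stages of Hes1 overlapped and the siCtrl stages did not. Uts2r, the urotensin receptor gene, had 1.51, 0.233 and 0 in siMlx 2-cell embryos, against 3.01, 1.81 and 4.14 in siMlx zygotes, and 10.6, 23 and 15.5 in siCtrl 2-cell embryos, against 2.15, 2.60 and 1.79 in siCtrl zygotes. Mir451 was listed at 0, 1.82 and 0 in siMlx 2-cell embryos and at 0 in all 3 siMlx zygotes, against 42.1, 41.9 and 50.1 in siCtrl 2-cell embryos and 0, 2.79 and 0 in siCtrl zygotes. Mir451 and Snord15b are annotated as small RNAs, for which a poly(A)-primed library gives no measure of the mature RNA, and 0610040F04Rik overlaps Bhlhe40 on the opposite strand. The epithelial ETS factor gene Elf3 differed by −2.14 (adjusted p = 0.048).

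Higher changes under siMlx were found for Hcrt, Gatad2a, Tex13, Hist1h2bh and Psmg3, among others. Gatad2a, a NuRD subunit, had 62.7, 78.3 and 88.3 rescaled FPKM in siMlx 2-cell embryos, against 16.2, 17.5 and 16.7 in siMlx zygotes, and 76.5, 14.9 and 14.2 in siCtrl 2-cell embryos, against 68.0, 72.5 and 79.3 in siCtrl zygotes (difference 3.59 ± 0.680, SE, limma, adjusted p = 0.031). At the zygote stage the siMlx libraries lay far under the siCtrl libraries, and siCtrl 2-cell 1 stood apart from the other siCtrl 2-cell libraries. Psmg3, a proteasome assembly chaperone, had 27.5, 34.1 and 40.1 in siMlx 2-cell embryos, against 2.25, 0.645 and 1.26 in siMlx zygotes, and 10.9, 10.8 and 13.7 in siCtrl 2-cell embryos, against 6.46, 5.68 and 6.08 in siCtrl zygotes. Hcrt, the orexin precursor gene, had 142, 34.4 and 19.2 in siMlx 2-cell embryos and was listed at 0 in siMlx zygotes, against 0, 2.68 and 0 in siCtrl 2-cell embryos and 0 in siCtrl zygotes. The ribosomal protein gene Rpl29 (2.38) rose more and Rps28 (−1.99) less under siMlx. Rps28 had 2-cell means of 16.2 under siMlx and 16.0 under siCtrl, and was listed at 0 in all 3 siCtrl zygotes. Usf2 (difference 2.27) fell in both groups, by −1.60 under siMlx and −4.02 under siCtrl. Psmb6 (difference 2.13) was not called under siMlx (0.92) and fell under siCtrl (−1.22).

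Against siEtv5 embryos, which lend 2 libraries at the 2-cell stage, the test of the difference called 186 genes with a lower change under siMlx (1.75% of 10652) and 38 with a higher one (0.357%). This comparison uses the same 6 siMlx libraries, so it is no independent check of the siCtrl comparison. Zscan4c differed from siEtv5 by −4.26 (limma, adjusted p = 0.0048) and from siCtrl by −2.98 (0.023). Spin1 differed by −2.97 (0.031) and −2.45 (0.031), Tcl1 by −3.09 (0.020) and −2.57 (0.020), and Gatad2a by 3.32 (0.0063) and 3.59 (0.031), with the siEtv5 value first. Btg4 (−2.47, adjusted p = 0.068), Psmg3 (1.24, 0.37) and Zfp750 (−0.70, 0.43) did not pass against siEtv5. Nor did Hcrt (3.00, 0.083), Tex13 (1.13, 0.15), Hist1h2bh (1.3, 0.23), Mir451 (−2.53, 0.078), Hes1 (−3.55, 0.068), Uts2r (−2.48, 0.09), Zp1 (−2.35, 0.061), Zfp36l1 (−1.69, 0.1), Elf3 (−1.39, 0.25), Rpl29 (2.12, 0.14), Rps28 (−1.09, 0.37) and Psmb6 (1.16, 0.38), while Snord15b was not tested there. Leaving out single libraries moved the counts against siEtv5 between 17 and 428 lower and between 4 and 233 higher, the extremes without siEtv5 2-cell 2, siMlx 2-cell 3 and siEtv5 zygote 3.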

How the data were processed

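RNA-seq libraries of zygotes and 2-cell embryos after siRNA injection were used, 23 in all, of which 17 (6 siMlx, 6 siCtrl, 5 siEtv5) enter the main fits and the siRfx1 libraries only an alternative fit. The authors aligned reads to mm9 with STAR (version 2.5.2b by the submitters' notes), and StringTie estimated the level of RefSeq transcripts (1.3.4 by the same notes, 1.3.3b by the file headers), without a strand option. The cDNA was primed with oligo-dT and amplified, without molecular identifiers. The deposited values are FPKM per transcript, with the TPM and the coverage of the same records, not counts. Aligned bases per library were taken from the ratio of the deposited coverage to the FPKM. Length and depth limit the precision of low values, and intervals of counting error could not be computed.

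FPKM were summed over transcripts per gene (22619 named genes of 29306 transcripts; 976 transcripts with no gene name were left out). Within a fit, libraries were brought to a common scale by median ratios, computed on genes that reach 1 FPKM everywhere. Genes averaging 1 rescaled FPKM or above entered the test, on log2(rescaled FPKM + 1), with limma 3.58.1 (trend, R 4.3.3), two-sided, with Benjamini-Hochberg adjustment over the genes tested. Calls require a change of more than 2-fold with an adjusted p below 0.05. The difference between groups is an interaction term over 12 (siCtrl) or 11 (siEtv5) libraries. Single values per library, such as the number of genes at 1 FPKM, were tested by exact permutation (scipy). Code was tested on simulated data. The members and lists were chosen with earlier results of these data known. Named genes were the 12 largest rises and falls among called genes at 10 rescaled FPKM or more with no overlap of stages, the 6 largest differences each way, up to 3 members each way per list, every tested member of the MLX network, every factor the study names, and the 6 highest genes switched on or lost. Further list members named in the text were chosen after their values were seen. Some genes that the rule names are not reported here. Promoters were matched by symbol for 79.8% of tested genes, under the 80% needed, so motif shares of gene sets are void and not given. Same-numbered siMlx libraries did not all deviate together (r of −0.103, −0.109 and 0.273), and the main fits do not pair them. With 3 libraries per stage these values cannot exclude that equal numbers share a collection or batch. Alternatives were other pseudocounts, filters, scalings, TPM, all libraries in a single fit, the replicate block, siEtv5 as control and each library left out.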

Additional observations from a re-analysis of the deposited data

Results flagged for a closer look

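For 30 named genes the zygote to 2-cell change differed between siMlx and siCtrl embryos by the test of the difference itself (limma interaction, more than 2-fold with an adjusted p below 0.05, 3 libraries per group and stage). The value after each gene is the log2 change under siMlx minus that under siCtrl. Oocyte and maternal-effect genes with a lower change under siMlx were Zp1 (−2.84), Oosp1 (−1.79), Btg4 (−2.29), Spin1 (−2.45), Tcl1 (−2.57), Tcl1b1 (−2.6), Tcl1b2 (−2.23) and Wee2 (−1.95). In the 2-cell program list, the change was lower for Zscan4c (−2.98), Zscan4d (−3.13) and Zscan4f (−2.71), which rose under siCtrl. It was also lower for C87977 (−2.31) and Zfp750 (−2.09), which fell in both groups and fell further under siMlx. The 6 largest lower changes were Mir451 (−4.37), Hes1 (−3.84), Uts2r (−3.8), Cypt3 (−3.67), Snord15b (−3.55) and 0610040F04Rik (−3.41), and members of other lists were Zfp36l1 (−2.77), Elf3 (−2.14) and Rps28 (−1.99). Higher changes under siMlx were Hcrt (4.92), Gatad2a (3.59), Tex13 (3.3), Hist1h2bh (3.07), Psmg3 (3.06), Usf2 (2.27), Rpl29 (2.38) and Psmb6 (2.13). All 30 kept their direction under the alternatives run. Each lost its call under at least 2 of up to 21, Btg4 and Elf3 under 17, 0610040F04Rik, Cypt3 and Rps28 under 15, Zp1 and Oosp1 under 14, and Psmg3 and Uts2r under 2.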

How the results depend on the processing

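Under all alternatives run, the siMlx counts stayed within 1.5 times 3672 higher and 3022 lower, except for 2009 lower with a filter at a mean of 5 FPKM, which tests fewer genes. Leaving out each library gave 3381 to 3847 higher and 2689 to 3014 lower. For siEtv5, the filter gave 2585 higher, and leaving out a library gave 2657 to 4170 higher and 1161 to 2634 lower.

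The difference from siCtrl was less stable. Against 104 lower, there were 62 with a pseudocount of 0.1, 48 with FPKM as deposited, 57 after quantile normalization, 18 with TPM and 40 with all libraries in a single fit, and against 21 higher there were 4 with TPM and 3 with all libraries. With siEtv5 in place of siCtrl there were 38 higher and 186 lower. Where this leaves a single library in a group, as with siEtv5 2-cell embryos, that library is assumed to vary like the others. Leaving out a library gave 3 to 77 higher and 13 to 204 lower. The difference from siEtv5 had 116 lower with a pseudocount of 0.1 and 72 higher after quantile normalization, and leaving out a library gave 4 to 233 higher and 17 to 428 lower. The cause was not tested.

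With the replicate number as a block, the pairing gave 3799 higher and 3092 lower for siMlx, 65 lower and 16 higher for the difference from siCtrl, and 94 lower and 17 higher for that from siEtv5. Same-numbered siMlx libraries did not all deviate together, and not every siMlx library correlated best with its own number, which does not exclude pairing.

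Genes gained numbered 605 and genes lost 143 at 5 in place of 10 FPKM, and 70 were lost on rescaled FPKM. Leaving out a library gave 360 to 485 switched on and 43 to 82 lost, counts that by the rule cannot fall below those with all libraries.

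Of 155 named siMlx genes 146 kept their call or lack of it, 8 lost the call under at least one alternative (Brd7, Hba-a2, Irf7, Mlx, Mlxip, Nfya, Oasl1 and Odf2) and Mlxipl gained it under 1. No called gene changed direction, and Mnt, which was not called, lay between −0.40 and 0.25 on the log2 scale.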

Other observations

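The sperm protamine transcript Prm2 had 0 FPKM in all 3 siMlx 2-cell libraries, against 23.7, 21.8 and 23.8 FPKM in siMlx zygotes, while Prm1 was listed at 0 in all 6. The aromatase gene Cyp19a1, a granulosa cell marker, had 0, 0.706 and 0 FPKM in siMlx 2-cell libraries, against 1.71, 3.40 and 6.64 FPKM in siMlx zygotes. The haemoglobin gene Hba-a2 had 0, 5.11 and 13.8 FPKM in siMlx 2-cell libraries and 0 in all 3 siMlx zygotes, and overlaps Hba-a1.

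The change under siMlx varied with transcript length. With the tested genes divided into 5 bins by length, in the bin of the shortest transcripts (30 to 1422 bases) the median log2 difference was 0.89, and in the bin with the longest (4376 to 23495 bases) it was 0.000246, against 0.95 and −0.14 under siCtrl. The median of the difference between siMlx and siCtrl was −0.05 in the shortest and 0.14 in the longest bin. The part of length in the results was not tested.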
